A study of Mus musculus with 6 samples.

Results

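The broadest H3K4me3 domains of mouse embryonic stem cells carrying wild-type WDR5 are described here. They are the 1000 widest peaks on chromosomes 1 to 19 of the H3K4me3 list, of 69221 on these chromosomes and 71695 in the whole list. They were selected on peak width in the WT rescue as the authors' peak caller gave it, with ties ordered by chromosome and start. The stem cells carried a Rx:GFP knock-in (Rx is an eye-field gene) and were held in 2i+LIF medium. Both lines were double knockouts for Wdr5 and p53, so the controls also lack p53. One line was rescued with wild-type WDR5 (WT rescue) and the other with WDR5 bearing the substitutions S91K and Y191F (mutant rescue). For each of the 2 lines 1 WDR5 and 1 H3K4me3 chromatin immunoprecipitation library gave a peak list, after 10 minutes of fixation in 1% formaldehyde, and the 2 input libraries were not analysed here. With 1 library per antibody and line, differences between the lines could not be checked in replicates and carry no p-value, and the labels do not say whether a line is 1 clone.

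H3K4me3 is histone H3 trimethylated at lysine 4, a mark laid down at promoters by the KMT2 and SETD1 enzyme complexes. WDR5 is a scaffold subunit that these complexes share. At most promoters the mark spans a few nucleosomes around the start site, whereas at genes that define a cell's identity and at some housekeeping genes it can run far into the transcribed gene. Such broad domains carry no direct measure of transcription.

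The domains covered several kinds of promoter, and a few sequences show the range. Below are the stretches of 250 bases before the start site of 6 genes whose start lies in a broad domain, written 5′ to 3′ on the gene's strand, with CG dinucleotides in capitals. Klf4, Pou5f1 and Sall1 encode transcription factors and are shown as developmental regulators. Rps7, Rps6 and Rpl23 encode ribosomal proteins and are shown because their domains differed most clearly between the lines. The sequences are RefSeq's on GRCm38.p6, which shares its coordinates with mm10, the build of the lists.
Klf4, chr4:55532476-55532725, minus strand: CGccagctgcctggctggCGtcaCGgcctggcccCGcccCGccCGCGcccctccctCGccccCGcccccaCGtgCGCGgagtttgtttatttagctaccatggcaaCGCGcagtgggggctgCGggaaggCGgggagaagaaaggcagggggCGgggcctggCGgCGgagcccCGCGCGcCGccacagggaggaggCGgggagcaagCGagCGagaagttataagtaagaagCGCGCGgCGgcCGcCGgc
Pou5f1, chr17:35505782-35506031, plus strand: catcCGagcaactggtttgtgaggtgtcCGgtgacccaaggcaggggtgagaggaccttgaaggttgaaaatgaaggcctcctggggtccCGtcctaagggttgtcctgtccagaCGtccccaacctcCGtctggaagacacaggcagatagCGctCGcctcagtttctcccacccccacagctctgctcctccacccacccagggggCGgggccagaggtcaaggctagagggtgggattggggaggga
Sall1, chr8:89044163-89044412, minus strand: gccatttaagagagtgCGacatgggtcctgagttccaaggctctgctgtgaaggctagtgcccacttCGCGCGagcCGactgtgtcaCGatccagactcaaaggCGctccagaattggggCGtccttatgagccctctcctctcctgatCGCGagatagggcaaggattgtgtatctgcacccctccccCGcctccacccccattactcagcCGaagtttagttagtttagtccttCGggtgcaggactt
Rps7, chr12:28635954-28636203, minus strand: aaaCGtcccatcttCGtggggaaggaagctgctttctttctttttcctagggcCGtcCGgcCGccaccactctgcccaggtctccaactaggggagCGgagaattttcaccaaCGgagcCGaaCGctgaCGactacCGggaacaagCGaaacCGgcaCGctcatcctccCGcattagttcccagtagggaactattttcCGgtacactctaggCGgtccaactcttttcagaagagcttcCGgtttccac
Rps6, chr4:86857368-86857617, minus strand: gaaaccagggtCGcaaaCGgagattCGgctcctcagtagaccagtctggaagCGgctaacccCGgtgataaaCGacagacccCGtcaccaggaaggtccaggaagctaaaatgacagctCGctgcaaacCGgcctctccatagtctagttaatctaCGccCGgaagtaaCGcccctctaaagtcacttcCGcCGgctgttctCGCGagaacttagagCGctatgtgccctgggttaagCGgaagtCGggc
Rpl23, chr11:97782440-97782689, minus strand: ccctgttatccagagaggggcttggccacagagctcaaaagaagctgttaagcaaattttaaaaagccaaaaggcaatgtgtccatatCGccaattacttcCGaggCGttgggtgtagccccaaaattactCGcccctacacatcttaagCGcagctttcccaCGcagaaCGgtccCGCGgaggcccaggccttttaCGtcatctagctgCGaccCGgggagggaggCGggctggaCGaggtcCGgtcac
The Pou5f1 stretch held 8 CG dinucleotides and the Sall1 stretch 13, against 32 in Klf4, 18 in Rps7, 19 in Rps6 and 15 in Rpl23. The observed to expected CG ratio was 0.334 for Pou5f1, 0.658 for Sall1, 0.941 for Klf4, 0.949 for Rps7, 0.958 for Rps6 and 0.777 for Rpl23.

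A microRNA cluster of stem cells lay inside a broad domain, and the start of another lay at the edge of one. The mature microRNAs below come from the miR-290 to miR-295 cluster in the domain at chr7:3217871-3221119 and from the first gene of the miR-17 cluster in the domain at chr14:115040410-115044061, which ends within miR-19a-3p. They are written with the seed, bases 2 to 8, in capitals (RefSeq). They are shown because they share most of their seed although they lie on different chromosomes, and the domain on chromosome 7 was singled out after its values were seen.
miR-291a-3p: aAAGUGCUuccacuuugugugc
miR-294-3p: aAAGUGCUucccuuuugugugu
miR-295-3p: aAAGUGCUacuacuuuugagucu
miR-290a-3p: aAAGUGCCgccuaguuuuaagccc
miR-291b-3p: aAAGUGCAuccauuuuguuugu
miR-17-5p: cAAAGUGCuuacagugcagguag
The seed AAGUGCU is common to miR-291a-3p, miR-294-3p and miR-295-3p, and miR-290a-3p and miR-291b-3p differ from it in their last seed base. In miR-17-5p the letters AAGUGC stand 1 base further along. The chromosome 7 domain was 3249 bp wide, and 92.0% of it lay in a mutant rescue H3K4me3 peak. The chromosome 14 domain was 3652 bp wide, and 70.0% of it lay in a mutant rescue peak.

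Domain width ran from 2500 to 5388 bp with a median of 2750 bp, against a median of 747 bp over all H3K4me3 peaks of these chromosomes. The domains were 1.44% of the peaks and held 4.70% of the bases. At the threshold, 1 peak of 2500 bp, at Itpkb, was inside and 3 peaks of the same width were outside, at Rpl6, at Hmbox1 and Ints9, and at Brd8 and Kif20a. Only 45 domains reached 3500 bp, and 757 were under 3000 bp. Fold is the authors' own enrichment at a peak's summit. It had a median of 5.23 in the domains, range 2.43 to 11.6, and of 4.76 over all peaks, where it reached 64.9. The domains were not the stronger peaks, because the narrowest 29221 peaks, with a median fold of 3.08, lower the median over all peaks. The 1000 peaks next in width had a median fold of 6.45 and the 3000 after those 7.69. Among the width classes the median was highest, 10.2, in peaks 1166 to 1542 bp wide. The 5 highest folds were in Abcg2 (11.6), at Myd88 (10.7), at Ap2m1 (10.6), at Tdp1 (9.85) and at Barx2 (9.84). The lowest after Malat1 were in Wdfy3 (2.45), in Eif4ebp1 (2.49), at H2-DMa (2.52) and at Znrf1 (2.53). By chromosome they made up from 0.994% of the peaks on chromosome 13 to 1.94% on chromosome 7.

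The widest domain of all, 5388 bp on chromosome 17, covered the ribosomal RNA sequences Rn18s-rs5 and AY036118. Ribosomal RNA genes are repeated many times in the genome, so reads cannot be assigned to this copy and its width is uncertain. The next, 4512 bp, covered the long noncoding RNA gene Malat1 and had the lowest fold of the 1000, 2.43. Anp32a, a gene for a histone-binding protein, followed with 4052 bp. Igf2bp1, for an RNA-binding protein, had 4007 bp. Zmiz1 had 3950 bp, Mycn, a growth regulator related to Myc, 3943 bp, and Cdk6, a cell cycle kinase gene, 3911 bp. Egr2, for a zinc finger factor, had 3873 bp and Eif4a2, for a translation initiation helicase, 3866 bp. Others of the 15 widest lay in Tenm4 (3838 bp), at Sema6a (3824 bp), at Spry2, an inhibitor of FGF signalling (3807 bp), in Dpys (3798 bp) and at Trim71 (3791 bp). At the narrow end stood domains in Plec, at 2410137M14Rik and at Itpkb, with 2501, 2501 and 2500 bp.

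Most domains lay at genes. Of the 1000, 624 had an annotated end of a protein-coding gene inside them or within 1 kb, 192 lay inside a protein-coding gene away from its ends, and 184 lay outside protein-coding genes. Of those 184, 51 lay at a noncoding gene. A single protein-coding gene was found at 478 domains, and 19 domains spanned a whole gene. In all, 781 of 20665 protein-coding genes were at a domain, 3.78%, and the counts for gene groups below are to be read against that share. The gene table gives no strand, so either end counts. Shares carry exact Clopper-Pearson 95% intervals, which cover counting error only.

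Naive pluripotency genes, which hold stem cells in their undifferentiated state, were at domains in 14 of 25 cases (56.0%, interval 34.9 to 75.6). The widest of these domains was that of Klf4, 3663 bp, of which 92.2% lay in mutant rescue peaks. Pou5f1, the gene for OCT4, had 3655 bp, of which 79.1% lay in mutant rescue peaks. Tbx3 had 3180 bp (99.8%), Tdgf1, which encodes a Nodal co-receptor, 3099 bp (77.1%), and Fgf4, an autocrine growth factor, 2951 bp (97.9%). Nanog had 2900 bp, of which 91.6% lay in mutant rescue peaks. Also at domains were Sox2, Klf5, Tet1, Dppa3, Klf2, Prdm14, Tet2 and Utf1. Across these 14 domains the median share in mutant rescue peaks was 91.9%, against 90.2% over all domains at protein-coding genes. WDR5 peaks of the WT rescue were listed at 6 of the 14 and of the mutant rescue at 1, beside 298 and 126 of the 624 domains at protein-coding genes.

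Signalling genes of the FGF, WNT, BMP/TGF-beta and Notch pathways were at domains in 19 of 53 cases (35.8%, interval 23.1 to 50.2). The members were ligands (Fgf4, Bmp4, Jag1, Tgfb1), receptors (Fzd2, Fzd5, Fzd7, Fzd8, Fzd10, Bmpr2, Fgfr3), inhibitors of the pathways (Lefty1, Spry2, Spry4, Dusp4, Smad6, Smad7) and nuclear effectors (Lef1, Tcf7l1). Smad7, 3367 bp, lay wholly in a mutant rescue peak. The Dusp4 domain of 3393 bp lay to 97.9% in mutant rescue peaks and the Bmp4 domain of 3567 bp to 58.6%. Of the developmental transcription factor families, 34 of 201 genes were at domains (16.9%), among them Sall1 (3778 bp), Klf12 (3739 bp) and Irx5 (3289 bp). Neural genes at domains included Sox21, Sox1, Irx3 and Meis1. Formative and primed pluripotency genes at domains were Zic5, Pou3f1 and Zic2, 3 of 15, and endoderm genes at domains included Cxcr4 and Foxa2. Bmp4 was the only 1 of 21 mesoderm genes. The median share in mutant rescue peaks was 92.4% for the signalling genes and 92.9% for the transcription factor families. None of 39 Hox genes was at a domain, which allows up to 9.03% by the interval.

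Genes of protein synthesis formed the other large group. Cytosolic ribosomal protein genes were at domains in 33 of 78 cases (42.3%, interval 31.2 to 54.0), and nucleolar and translation factor genes in 12 of 23 (52.2%, interval 30.6 to 73.2). The 1000 peaks next in width held a further 23 peaks at ribosomal protein genes, so such genes were not particular to the broadest domains. With peaks closer than 1 kb joined before the 1000 widest were taken, 14 domains lay at ribosomal protein genes in place of 33. Rpl4 had the widest domain of the ribosomal protein genes, 3700 bp, followed by Rpl3 with 3655 bp and Rps24 with 3572 bp. At the 12 nucleolar and translation factor domains, which include Eif4a2, Nop56 and Rack1, the median share in mutant rescue peaks was 84.8%. A WT rescue WDR5 peak was listed at 11 of the 12, beside 298 of the 624 domains at protein-coding genes. With a −log10 q of at least 2 it was listed at 5, beside 57 of the 624. Mutant rescue WDR5 peaks were at 4 of the 12, beside 126, and at 2 with that −log10 q, beside 40. The ribosomal protein list was taken by gene name, and the pattern missed Rps3a1 and Rps15a, both of which encode ribosomal proteins and were at domains. Ribosomal protein genes have many processed copies elsewhere in the genome, so reads in their exons may be shared with these copies. The Myc family genes Myc (3571 bp) and Mycn and the Myc antagonist Mnt (2585 bp) were at domains, 3 of 12 in that network. Polycomb subunit genes numbered 6 of 29 (Kdm2b, Eed, Phc1, Jarid2, Rybp and Aebp2) and glycolysis genes 4 of 13 (Gapdh, Pkm, Hk2 and Eno1). Of the 19 subunit genes of the KMT2 and SETD1 complexes, Kmt2a and Wdr82 were at domains, and none of 4 H3K4 demethylase genes was. Of p53 target genes Sesn1 alone of 23 was at a domain.

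Of the markers of the labelled cell type, Pou5f1, Nanog, Sox2, Dppa3 and Klf4 were at domains. The markers Esrrb, Tfcp2l1 and Zfp42 were not, although a domain lay inside Esrrb away from its ends. In the longer naive pluripotency list 11 of the 25 genes were not at domains. Trophectoderm genes (0 of 9, interval up to 33.6%) and fibroblast genes (1 of 14, Vim) were not distinguishable from the 3.78% background at these list sizes, and neural and endoderm genes were also at domains. None of 63 replication-dependent histone genes and none of 1104 olfactory receptor genes was at a domain. H3K4me3 width is not a measure of expression, and no expression data were analysed here.

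**Figure D1:**
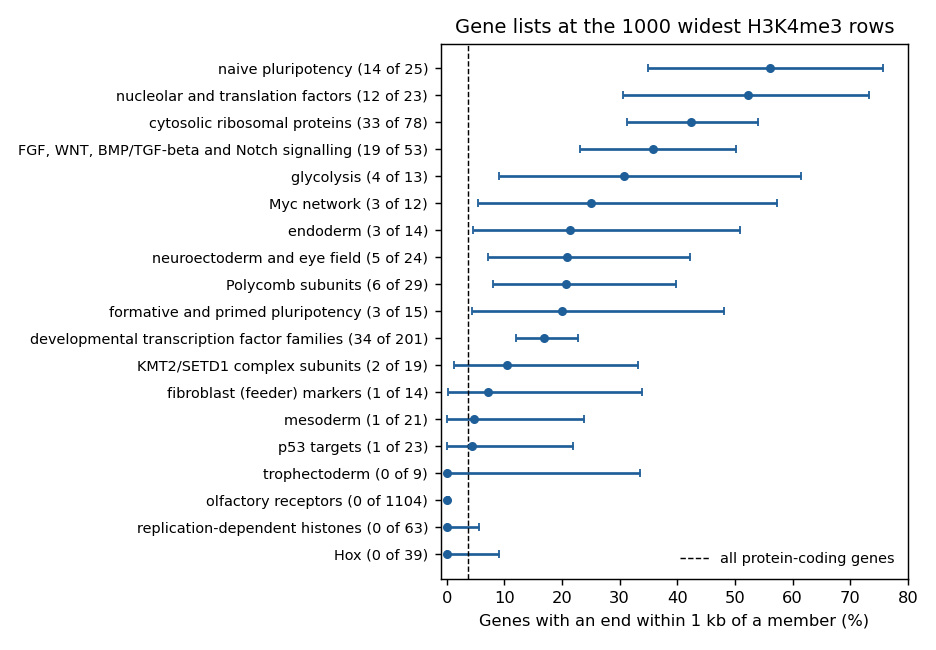
Share of each gene list with a gene end within 1 kb of one of the 1000 broadest H3K4me3 domains (x axis, percent), with exact 95% intervals that cover counting error only. Naive pluripotency (56.0%), nucleolar and translation (52.2%), ribosomal protein (42.3%) and signalling genes (35.8%) stand farthest from the dashed line at 3.78%, the share of all protein-coding genes.

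Domain promoters were rich in CG. Of 16457 RefSeq promoters matched on these chromosomes, each 250 bases before to 50 after a start site, 507 had their start site in a domain. These had a median GC content of 65.0% and a median observed to expected CG ratio of 0.852, against 56.7% and 0.595 over all promoters. Promoters in the 1000 peaks next in width had 64.7% and 0.876, close to the domains. Promoters in no H3K4me3 peak had 46.3% and 0.171. The letters GGGCGG, the core of the SP1 box, read on both strands, were found in 73.2% of domain promoters and 47.3% of all promoters. CCGGAAG, the core bound by ETS factors, was found in 18.1% and 12.3%, and in 8 of the 18 ribosomal protein promoters that start in a domain. TATAAA was found in 5.52% of domain promoters and 13.5% of all. In promoters of the 1000 peaks next in width GGGCGG was found in 75.3%, CCGGAAG in 16.4% and TATAAA in 5.71%, and in those of all narrower peaks GGGCGG in 67.8%, TATAAA in 6.40% and CCGGAAG in nearly the same share as in the domains, so the shares were near those of other H3K4me3 promoters. These matches describe letters and not bound sites.

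Around the start site the domains were lopsided. In 385 domains whose annotated start sites all lay on 1 strand, the domain reached a median of 754 bp upstream of the outermost start site and 2029 bp downstream, into the gene. In the mutant rescue the corresponding medians were 706 and 1793 bp. Measuring from the outermost start site favours the downstream side, so part of the difference between the sides is built in. The 82 domains with start sites on both strands were left out, and the reach of narrower peaks is not given here.

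Every domain had an H3K4me3 peak in the mutant rescue: 1000 of 1000 were overlapped by at least 1 base (interval 99.6 to 100%), against a background of 80.7% for all WT rescue peaks. The 1000 peaks next in width were also all overlapped, with 88.3% of their bases in mutant peaks, so this was not particular to the domains. A single mutant peak met 843 domains, and 157 domains met more than 1. Mutant rescue peaks covered 87.6% of the domains' bases. Per domain the share had a median of 90.6% and quartiles of 83.0 and 95.9%, and 47 domains were covered whole. The widest overlapping mutant peak was wider than the domain in 132 of 1000 cases. Because the domains were chosen for their width in the WT rescue, a narrower counterpart in any other library is partly built into the choice. Choosing the 1000 widest peaks of the mutant rescue instead (2413 to 4620 bp) gave 90.6% of their bases in WT rescue peaks, and for 466 of them the widest WT peak was wider. Of the domains, 587 were overlapped by a peak of that mutant choice.

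Few domains were mostly outside the mutant peaks. Under 50% of the bases lay in mutant peaks in 9 domains, and under 75% in 120. The lowest share, 7.50%, was that of a 3201 bp domain in Slc37a1, whose only mutant peak was 240 bp wide. A domain of 3013 bp on chromosome 4 with no gene had 21.1%, one of 2689 bp in Manba 28.8% and one of 2611 bp in Nr6a1 31.1%. Next came Rps24 with 39.8%, a domain in Abcg2 with 41.8%, Rpl35 with 42.2%, a domain in Eif4ebp1 with 44.9%, Ccdc58 with 46.2% and a domain of 2540 bp on chromosome 2 with no gene at 50.4%. Apart from Rps24 and Rpl35, none of these 10 had a WDR5 peak in either line. Other than at Rps24, Rpl35 and Abcg2, these were weak calls in the WT rescue too. Their H3K4me3 −log10 q ran from 5.53 (Eif4ebp1) to 23.3 (Nr6a1), against a median of 177 over the domains. Whether weak calls explain their low shares was not tested.

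Of the 132 domains with a wider mutant rescue peak, the 5 with the highest ratio of widths are given here. Jarid2, whose product is a Polycomb subunit, went from 2790 bp in the WT rescue to 4620 bp, the widest mutant peak at any domain. A domain in Esrrb, a naive pluripotency factor gene, measured 2532 bp in the WT rescue against 3754 bp in the mutant line. A domain on chromosome 2 with no gene measured 2686 and 3744 bp. At Fsbp the widths were 2805 and 3483 bp and at Slc3a2 2706 and 3348 bp. None of these 5 had a WDR5 peak.

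**Figure D2:**
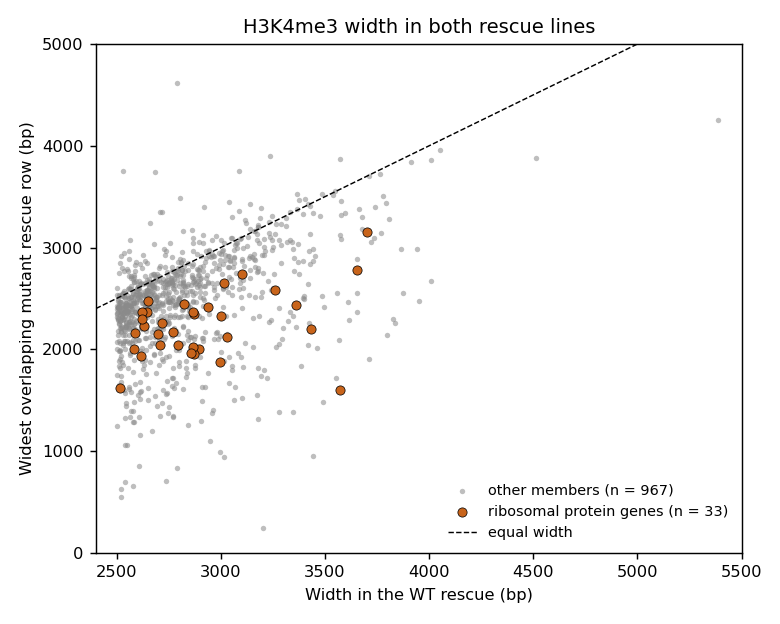
Width of each of the 1000 domains in the WT rescue (x axis, bp) against the widest overlapping H3K4me3 peak of the mutant rescue (y axis, bp), 1 library per line. Ribosomal protein genes (orange, n = 33) all lie under the dashed line of equal width, where 132 of the 1000 domains lie above it.

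WDR5 peaks were more frequent at broad domains than at H3K4me3 peaks as a whole. A WT rescue WDR5 peak overlapped 362 domains (36.2%, interval 33.2 to 39.3), against a background of 6.75%. A mutant rescue WDR5 peak overlapped 167 domains (16.7%, interval 14.4 to 19.2), against 4.42%. Peaks of both lines were at 111 domains (11.1%, against 1.87%), and 582 domains had none. The mutant WDR5 list on chromosomes 1 to 19 was the longer, 26691 peaks against 10942, and 0.734% of its peaks lay at domains against 3.99% of the WT list. Most of these peaks were weak, since the lists admit any peak of −log10 p from 2 upward. At a −log10 q of at least 2, 67 domains had a WT rescue WDR5 peak (6.70%, against 1.25%), 55 a mutant rescue peak (5.50%, against 1.20%) and 37 both (3.70%, against 0.565%).

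Wide peaks offer more bases for a WDR5 peak to fall on. Per megabase, domains held 154 WT rescue and 69.0 mutant rescue WDR5 peaks, all H3K4me3 peaks held 83.3 and 53.4, and the 1000 peaks next in width held 153 and 75.7. The density at the domains was thus near that of the next 1000 peaks. In the WT list the share of peaks with WDR5 went down from 36.2% in the domains to 31.6% in the next 1000, 24.4% in the 3000 after those and 1.61% in the narrowest 29221. In the mutant list it was 16.7% in the domains and 16.2% in the next 1000. Counting WDR5 peaks of −log10 q from 2 upward, the shares in the WT list were 6.70% and 6.80%, and the domains held 24.3 WT rescue WDR5 peaks per megabase, against 29.3 in the next 1000 and 22.7 in the narrowest 29221.

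**Figure D3:**
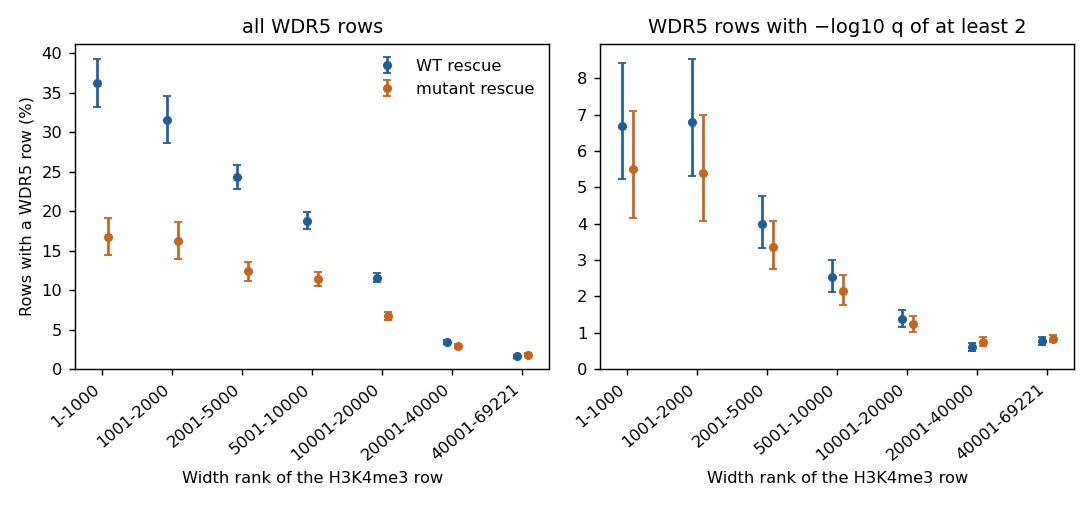
Share of WT rescue H3K4me3 peaks with a WDR5 peak (y axis, percent) by width rank (x axis), for all WDR5 peaks (left) and those with −log10 q of at least 2 (right; the y axes differ). Bars are exact 95% intervals covering counting error only. For all WDR5 peaks the domains stand at 36.2% for the WT line and 16.7% for the mutant line, and at the stricter threshold at 6.70% and 5.50%.

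Most WDR5 summits lay downstream of the start site, the side on which the domains themselves reached farther (medians 2029 bp downstream and 754 bp upstream). Whether the share of summits downstream exceeded the share of domain bases there was not tested. In domains with start sites on 1 strand, WDR5 summits of the WT rescue lay at a median of 216 bp downstream of the outermost start site (n = 204, 70.1% downstream), and those with −log10 q of at least 2 at 145 bp (n = 34). In the mutant rescue the medians were 170 bp (n = 81) and 147 bp (n = 21). The highest WDR5 fold at a domain was at Alkbh5, which encodes an RNA demethylase: 30.9 in the WT rescue list at a summit 1054 bp past the start site, and 11.3 in the mutant rescue list at 1166 bp. A second, lower WDR5 peak stood near the Alkbh5 start site in both lists, with summits at 75 and 63 bp. The Alkbh5 domain of 2857 bp lay to 92.1% in a mutant rescue H3K4me3 peak. The domain at H2-DMa, which lies inside Brd2, followed in the WT list with a WDR5 fold of 18.2, and stood at 8.57 in the mutant list. Rps6 was next with 17.1 and 14.3. In the mutant list the highest fold was at Rps24, 16.4. The domain with most WT rescue WDR5 peaks was Socs2, a gene for an inhibitor of cytokine signalling, with 4, of which 1 had a −log10 q of at least 2. Myc, Klf4 and Nanog each had 1 weak WT rescue WDR5 peak, with −log10 q of 0.867, 0 and 0, and no mutant peak, and Pou5f1, Mycn, Sall1 and Spry2 had none in either list.

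The 37 domains with WDR5 of −log10 q at least 2 in both lines kept less of their H3K4me3 width in the mutant rescue. Their median share in mutant rescue peaks was 73.7% (quartiles 66.4 and 83.0), against 91.0% (83.4 and 96.6) in the 582 domains with no WDR5 peak. Domains with such WDR5 in the WT rescue alone (n = 30) had 89.4%, in the mutant rescue alone (n = 18) 93.3%, and with weaker WDR5 peaks (n = 333) 90.5%. Under 75% in mutant peaks were 20 of the 37 (54.1%) and 66 of the 582 (11.3%). The same medians in the next 1000 peaks by width were 73.8% (n = 37) and 91.5% (n = 622), so the difference was not particular to the broadest domains. By gene, 17 of the 37 were ribosomal protein genes of the list. The other 20 included Rps3a1, Rps15a, the translation genes Rack1, Naca, Eif3d and Serbp1, the chaperonin gene Cct7, the small nucleolar RNA host genes Snhg15 and Snhg17, the cell cycle genes Cdt1 and E2f3, Mnt, Alkbh5 and the ribosomal RNA domain. Genes of these 37 that the naming rule does not take were named with their values known. The 20 had a median of 81.6%. The Snhg17 domain of 2534 bp lay to 52.6% in mutant peaks, with WDR5 folds of 14.0 and 8.86, whereas E2f3 lay to 92.4%, with folds of 12.4 and 11.2.

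**Figure D4:**
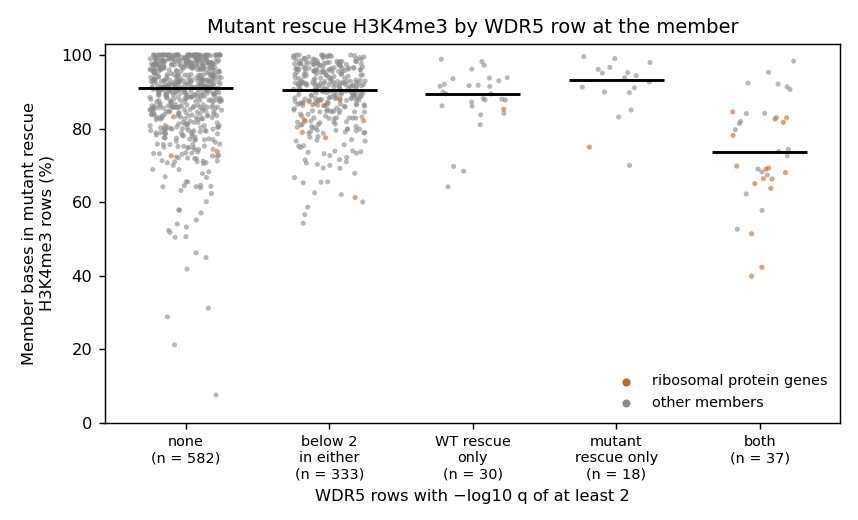
Percent of each domain's bases inside mutant rescue H3K4me3 peaks (y axis), by which line had a WDR5 peak of −log10 q at least 2 at the domain (x axis). Each point is a domain, black lines are medians, sideways scatter is random, and ribosomal protein genes are orange. The median is 73.7% where both lines had such a WDR5 peak and 91.0% where none was listed.

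Domains of ribosomal protein genes were shorter in the mutant rescue, on the side of the gene body. The 33 had a median width of 2866 bp in the WT rescue (2514 to 3700) and a widest mutant peak of 2224 bp (1603 to 3155), narrower in all 33. Their share in mutant peaks had a median of 77.5% (39.8 to 90.4), against 90.9% in the other 967 domains. The 14 with start sites on 1 strand ended at a median of 2456.5 bp downstream in the WT rescue (1409 to 3564). In the mutant line they ended at 1636.5 bp (1179 to 1966), and the downstream edge was nearer the start site in 14 of 14. The median shift of that edge was −746 bp, against −105 bp in the other 371 domains with start sites on 1 strand. At the upstream edge it was −4.5 bp, against −36 bp. Within the mutant list the widest peak at ribosomal protein domains had a median fold of 7.99, against 5.69 at the other domains, while within the WT list the medians were 5.24 and 5.23.

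Rps24 had the lowest share of the 33. Its domain was 3572 bp wide in the WT rescue and its mutant peak 1603 bp, 39.8% of the domain being covered. WDR5 summits lay 130 bp (WT) and 149 bp (mutant) past the outermost start site, with folds of 14.2 and 16.4. Rpl35 had 2514 bp and a mutant peak of 1622 bp (42.2% covered), with WDR5 folds of 11.0 and 15.5. For the 3 whose promoters are printed above, Rps7 had 3434 and 2200 bp (63.7%), Rpl23 2856 and 1968 bp (68.9%) and Rps6 2771 and 2165 bp (78.1%). Rps15a, outside the name pattern, had 2516 and 1991 bp (57.7%). Strong WDR5 was thus listed in both lines at these 6 genes. Other shortened domains had little or no WDR5. Rps19 lay to 61.3% in mutant peaks with a single weak WDR5 peak (fold 2.30, −log10 q 0), and Rpl27a to 72.6% with none. Of the 33, 17 had WDR5 of that strength in both lines, and 4 had no WDR5 peak. The 16 others than the 17 had a median of 82.8%. Where both lines had it, the top WDR5 fold had a median of 12.5 (7.04 to 17.1) in the WT list and 13.0 (5.34 to 16.4) in the mutant list.

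The difference was also seen over all ribosomal protein genes, whatever the width of their peaks. Of 78, 76 had an H3K4me3 peak within 1 kb of a gene end in both lines, and the widest mutant peak was a median of 84.0% of the widest WT peak, narrower at 69 of 76. Over all 14061 protein-coding genes with peaks in both lines the median was 95.4%, narrower at 10248. With a WT peak of at least 1800 bp, the medians were 83.3% (n = 68) and 92.9% (n = 4118). Nucleolar and translation factor genes had 86.0% (n = 22), narrower at 21. Naive pluripotency genes had 92.7% (n = 22), narrower at 14. Endoderm genes had 78.7% (n = 9), narrower at 7, and trophectoderm genes 86.8% (n = 8), narrower at 5. A low median ratio was thus also found in small lists outside protein synthesis. Among the 1000 widest mutant peaks, 12 ribosomal protein genes were found, against 33 in the WT choice, with 9 in both. Read depth, background and antibody yield of each single library act on peak width, and their part in the result was not tested.

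**Figure D5:**
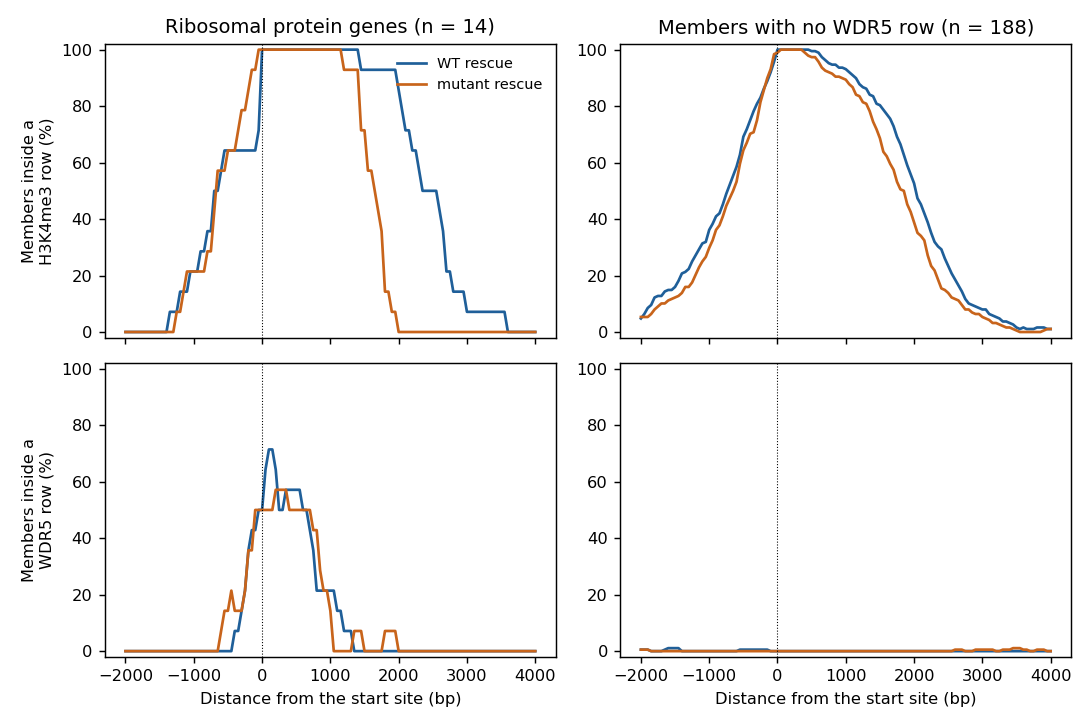
Share of domains inside an H3K4me3 peak (top, percent) or WDR5 peak (bottom, percent) by distance from the outermost start site (x axis, bp, downstream positive), in the WT rescue (blue) and mutant rescue (orange). The 14 ribosomal protein domains (left) end within 1966 bp downstream in the mutant rescue and reach up to 3564 bp in the WT rescue, whereas the curves of the 188 domains with no WDR5 peak (right) lie closer together.

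Transfer RNA genes marked a different set. Of the 18 domains with WDR5 of −log10 q at least 2 in the mutant rescue alone, 8 held a transfer RNA gene end, and these were all 8 such domains among the 1000. Another of the 18, at Trim41, had a transfer RNA gene within 1 kb and none inside, and is not counted among the 8. This set was picked out with its values known. In the mutant list their top WDR5 folds ran from 4.27 to 10.2. In the WT list 3 of the 8 had a WDR5 peak, the strongest with a −log10 q of 1.23, at Tmpo. The highest −log10 q in the mutant list, 43.2, was at a domain of 3154 bp on chromosome 13 with n-TMcat14 and 4 other transfer RNA genes inside or within 1 kb. The domain at Hes7, a Notch target gene, with 4 transfer RNA genes inside or within 1 kb had a mutant fold of 5.72 and a WT fold of 2.47, with a −log10 q of 20.6 and 0.144. That mutant peak overlapped the domain only in part, and its summit lay past the domain's end. H3K4me3 at these domains was close to the same width in both lines, with a median of 95.6% in mutant peaks. Outside the domains, 90.3% of 113 H3K4me3 peaks with a transfer RNA gene end had mutant rescue WDR5 of that strength and 10.6% had it in the WT rescue, so this too was not particular to broad domains. Transfer RNA genes occur in near-identical copies, and reads may be shared among them. The domain with miR-17 was also among the 18, with mutant WDR5 at a fold of 3.96 and WT WDR5 at 2.89, with −log10 q of 3.74 and 0.387.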

How the data were processed

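Each of the 4 peak lists belongs to 1 library. Per the submitters' processing notes, MACS2 2.1.2, BWA 0.7.17-r1188, Picard and SAMtools were used on mm10, and settings and controls are not given in the sources used here. The deposited columns used were position, fold (a ratio, the authors' enrichment at the summit), −log10 p and −log10 q, as deposited by the authors, and summit. The score that the authors deposited was left unused. Folds were ranked only within a list. Where folds of both lists are given side by side, they come from single libraries, and the difference between the lines was not tested. Read depth is unknown, and peak width and number depend on it.

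The 1000 widest WT rescue H3K4me3 peaks of chromosomes 1 to 19 were taken, with overlap from 1 base. Genes were those of a RefSeq table on GRCm38.p6 with an end within 1 kb. Strand came from the RefSeq promoter table, which gave 467 domains a start site, 385 of them on 1 strand. Named genes were set by rule: extremes of width, fold, share in mutant peaks and WDR5, and up to 6 genes per list. Exceptions are stated, and some genes that the rule takes are left out of the text. The domains and the 20 gene lists were chosen with earlier results of these data known. Lists are described by counts and medians, with no test. The overlap, joining and gene code was tested on simulated data. Python 3.11.15, numpy 2.4.6, pandas 2.3.3, scipy 1.17.1 and matplotlib 3.10.9 were used. Alternatives changed the number of domains, joining of peaks, overlap rule, WDR5 threshold, list length and gene window. The 2 inputs were not analysed here.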

Additional observations from a re-analysis of the deposited data

How the results depend on the processing

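No paired analysis was possible because there was 1 library per antibody and line and no test. Overlap by a mutant rescue peak stayed at 99.9 to 100% of domains, except 95.6% with a reciprocal overlap of 50%. Bases in mutant rescue peaks were 87.6% in the main choice, 86.9% with the 500 widest peaks, 87.9% with the 2000 widest, 87.5% with mutant peaks of −log10 q at least 2 and 72.5% with peaks closer than 1 kb joined. Joining counts the gaps as domain and left 324 of the 1000 domains overlapped by a joined one, and 14 ribosomal protein domains in place of 33. WT rescue WDR5 was at 39.8% of the 500 widest and at 26.6% of joined domains, mutant rescue WDR5 at 14.3% of joined domains. WDR5 peaks of −log10 q at least 2 were at 6.70% (WT rescue), 5.50% (mutant rescue) and 3.70% (both). With the mutant WDR5 list cut to the length of the WT list, the mutant share was 11.2% and the share with both 8.0%. Genes at domains numbered 405 for the 500 widest and 1534 for the 2000 widest, which follows from the number taken.

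Settings added after seeing the data kept the median share of ribosomal protein domains in mutant peaks at 73.7 to 77.5% and that of domains with strong WDR5 in both lines at 69.3 to 73.8%. The unknown depth of single libraries limits every width and every WDR5 count near the threshold.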
